A study of Mus musculus with 6 samples.

Results

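The ADAM and ADAMTS metalloproteinases were followed in the soleus of mice that lack 1 functional copy of *Mustn1*. Members were the rows of the deposited normalized table whose gene symbol reads Adam, Adamts or Adamtsl followed by a number and at most 1 letter, and 39 of its 16247 genes fit this rule. They fall into 16 *Adam*, 18 *Adamts* and 5 *Adamtsl* genes. Another 18 genes of the larger count table carry such a symbol, among them *Adam1b*, *Adam2*, *Adam3*, *Adam28*, *Adam29* and *Adamts13*, and none of them held more than 10 reads over the 6 libraries together.

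RNA came from the soleus, a calf muscle rich in slow fibers, of 3 *Mustn1* KO-first heterozygous mice (HET) and 3 wild-type mice (WT), with 1 poly-A library per mouse. All mice were 8 weeks old, on the C57BL6/N background, and the WT mice were littermates of the HET mice. In the KO-first allele (tm1a), a lacZ reporter and a neomycin cassette interrupt the transcript after its first exon. It is a germline allele present in all cells, so the contrast is not limited to 1 cell type. Each HET mouse keeps 1 normal copy.

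*Mustn1* itself was at 12.6, 16.8 and 13.1 CPM (the read count scaled to the size of the library) in the 3 HET mice and at 23.1, 29.0 and 30.5 CPM in the 3 WT mice, so the genotypes did not overlap (log2 fold change −0.96 ± 0.15 SE, edgeR adjusted p = 0.0452). With 1 mouse left out the log2 fold change lay between −1.09 and −0.88, and the call held without HET 2 or WT 3 and was lost without any other. Libraries held between 26790075 and 50368796 reads on genes, and 14696 genes passed the filter on low counts. Male is the sex given in the labels, yet *Xist* had 3858 to 9154 reads per mouse and 4 Y-linked genes had at most 12 together, in both genotypes alike. The slow myosin gene *Myh7* was between 1589 and 1720 FPKM (CPM per kilobase of exon, a level per length) in every mouse and the fast myosin genes *Myh1* and *Myh4* below it, at 643 to 1107 and 7.43 to 339 FPKM.

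ADAM proteins are membrane-anchored proteases that cut the outer domains off other membrane proteins, such as growth factor precursors, cytokines, receptors and adhesion molecules, a step called shedding. ADAMTS proteins are secreted and work in the extracellular matrix, where some cleave proteoglycans, some remove the amino-terminal propeptide of fibrillar procollagens and some act on the fibrillin microfibrils. ADAMTS-like proteins share the thrombospondin repeats of the ADAMTS family without a protease domain and are matrix proteins themselves. In muscle, these enzymes are known from myoblast fusion, satellite cell signalling and the turnover of the connective tissue around the fibers.

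The coding sequences of the members follow this division. In the GENCODE M21 annotation of GRCm38, the active site that binds zinc, 11 residues read with the pattern of 3 histidines and 1 glutamate, was found in 10 of 16 Adam proteins, in 18 of 18 Adamts proteins and in 0 of 5 Adamtsl proteins. A hydrophobic stretch long enough to cross a membrane, taken as a window of 19 residues with a mean hydropathy above 1.8 beyond the first 60 residues, was found in 16 of 16 Adam proteins and in none of the 23 others, with *Adam33* at 1.85 and *Adamts17* at 1.74 nearest to that limit. Thrombospondin repeats were found in 0 of 16, 18 of 18 and 5 of 5 proteins. The 6 *Adam* genes with no zinc site were *Adam4*, *Adam5*, *Adam11*, *Adam22*, *Adam23* and *Adam32*, so *Adam23* and the *Adamtsl* genes below stand for proteins with no active protease site.

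The 33 bases that encode the zinc site are shown here for the members to which the comparison of genotypes turns, since the non-catalytic members lack them. Each is read 5′ to 3′ on the coding strand of GRCm38, and capitals mark the codons of the 3 histidines, of the glutamate and of the residue at position 8 of the site.
Adam19: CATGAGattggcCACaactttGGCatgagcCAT
Adam33: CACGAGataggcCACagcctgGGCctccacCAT
Adam8: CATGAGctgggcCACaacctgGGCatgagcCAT
Adamts2: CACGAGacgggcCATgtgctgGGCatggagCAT
Adamts14: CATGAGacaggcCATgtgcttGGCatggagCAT
Adamts3: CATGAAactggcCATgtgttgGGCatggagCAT
Adamts5: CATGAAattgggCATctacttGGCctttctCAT
Adamts4: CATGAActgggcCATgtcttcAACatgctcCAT
Adamts1: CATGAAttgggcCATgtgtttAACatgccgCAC
Adamts8: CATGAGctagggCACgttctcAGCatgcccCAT
The site of *Adam19* lies in exon 11 at chr11:46125050-46125082, that of *Adam33* in exon 11 at chr2:131055130-131055162 and that of *Adam8* in exon 11 at chr7:139987893-139987925. In *Adamts2* it is split by an intron between exons 7 and 8, at chr11:50775403-50776134, and the same holds for all 18 *Adamts* genes but for only 1 of the 10 *Adam* genes with a site, *Adam10*. *Adamts2*, *Adamts14* and *Adamts3* are the procollagen N-proteinases, with 3 bases of 33 differing between *Adamts2* and *Adamts14* and 4 between each of these and *Adamts3*. Likeness over these bases does not follow the classes throughout, and *Adam8* and *Adam12* each differ from the secreted *Adamts17* at 3 bases and from one another at 4. At position 8 the site encodes a glycine in every *Adam* site and in the procollagen N-proteinases, an asparagine in *Adamts1*, *Adamts4*, *Adamts9*, *Adamts15* and *Adamts20*, and a serine in *Adamts8*. *Adamts5*, listed with these proteoglycanases, encodes a glycine, and its 33 bases differ from those of *Adamts1* at 13 positions.

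The family took between 0.0662% and 0.0901% of the reads of a library. Per length, 5 members held 71.3% of the summed FPKM of the 39. These were *Adamts8* at 22.0 FPKM, a proteoglycanase, *Adamtsl5* at 21.8 FPKM, a fibrillin-binding matrix protein, *Adam9* at 21.2 FPKM, a broadly expressed sheddase, *Adamtsl4* at 20.7 FPKM, which binds fibrillin-1, and *Adamts1* at 15.2 FPKM, which cleaves versican and aggrecan. The order among the first 4 was within the spread over the 6 mice, with *Adamts8* between 17.9 and 31.2 FPKM and *Adamtsl4* between 16.1 and 24.9 FPKM. *Adam10*, the sheddase of Notch receptors, followed at 7.80 FPKM, then *Adam15* at 6.69 FPKM and *Adam17*, which releases tumour necrosis factor, at 6.56 FPKM. Summed over members, the classes were close to one another, with 32.5% of the family's FPKM from *Adam*, 36.4% from *Adamts* and 31.1% from *Adamtsl* genes.

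The other members lay far below. *Adamts2* was at 2.58 FPKM, *Adamts10* at 2.33, *Adamts5* at 2.15, *Adamts20* at 1.99 and *Adam19* at 1.48 FPKM, and 14 of the 39 members reached 1 FPKM. At the lower end, *Adam4*, *Adam5*, *Adam21*, *Adam32*, *Adamts18* and *Adamts19* held between 0 and 20 reads per library and did not pass the filter, so that 33 members were tested. The first 4 of these are known mainly from the testis. *Adam32* lies 0.8 kb from *Adam9* on the same strand of chromosome 8, and it was at 0.0472 FPKM beside the 21.2 FPKM of *Adam9*.

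Against this background of levels, the comparison of HET with WT mice asked whether the family differs in muscle with less *Mustn1*. No member passed the threshold of 0.05 on the adjusted p of edgeR in either direction, where 0.143% of all tested genes passed as higher in HET and 0.00680% as lower. The smallest adjusted p-values were 0.108 for *Adamts2* and 0.163 for *Adam19*. With DESeq2's Wald test on the same genes these 2 members passed, as higher in HET, beside 1.51% of all genes higher and 0.0555% lower, and with limma-voom none did. At an unadjusted p below 0.05 in edgeR, 10 of the 33 tested members, or 30.3%, were higher in HET and 0 were lower, while at the same limit 5.76% of all tested genes were higher and 7.76% were on either side.

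The direction of the members leaned to HET. Of the 33 tested members, 24 had a positive and 9 a negative log2 fold change, with a median of 0.24, whereas 45.6% of all tested genes had a positive one, with a median of −0.02. In 11 tested members, or 33.3%, each of the 3 HET mice was above each of the 3 WT mice, and in 0 members each was below. Over all tested genes such a separation occurred in 7.55% towards HET and in 6.02% towards WT. *Adamts19*, at 4 to 18 reads per library, separated in the same way and was not tested. The 11 tested members that separated were at low levels, between 0.178 and 2.58 FPKM, and none of the 5 most abundant members did so.

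**Figure D1:**
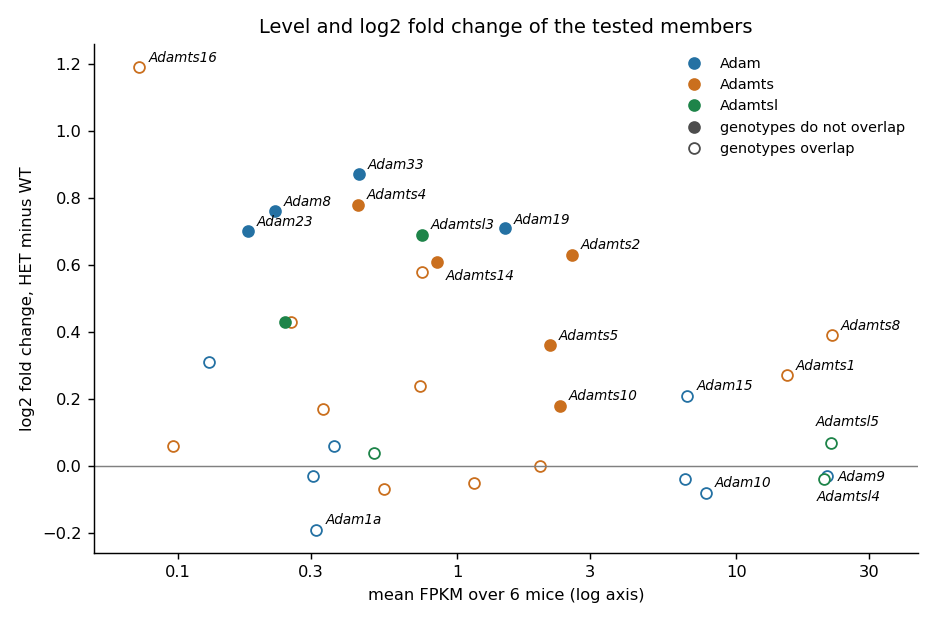
Mean FPKM over the 6 mice (log axis) and log2 fold change, HET minus WT, of the 33 tested members, 1 point per gene, coloured by class and filled where the HET and WT mice do not overlap in CPM. The 5 most abundant members are open and lie between −0.04 and 0.39, and the filled members lie at 2.58 FPKM or less, between 0.18 and 0.87.

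Among the 12 tested *Adam* genes, 4 separated the genotypes, beside 7.55% of all tested genes towards HET, and the sheddases with the highest levels did not. *Adam19*, which takes part in the shedding of neuregulin, lies on the plus strand of chromosome 11 from 46055992 to 46147343. It was at 13.4, 13.5 and 12.4 CPM in HET mice and at 6.72, 10.2 and 6.99 CPM in WT mice. The HET mice lay close together and the WT mouse nearest to them was WT 2. Its log2 fold change was 0.71 ± 0.17 (SE, edgeR adjusted p = 0.163, DESeq2 adjusted p = 0.00907) and stayed between 0.61 and 0.93 when 1 mouse at a time was left out.

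*Adam33*, a member known from mesenchymal cells of the airway, was the *Adam* gene with the largest log2 fold change, 0.87 ± 0.24 (SE, edgeR adjusted p = 0.263). It was at 3.04, 3.17 and 3.12 CPM in HET mice and at 1.17, 1.67 and 2.19 CPM in WT mice, with an SD of 0.0618 CPM over the 3 HET mice and of 0.509 CPM over the 3 WT mice. *Adam8*, known from leukocytes, was lower in level, at 0.988, 1.23 and 1.66 CPM in HET mice and at 0.602, 0.922 and 0.770 CPM in WT mice. The gap between HET 1 and WT 2 was small, and with 18 to 73 reads per library the log2 fold change of 0.76 ± 0.31 (SE) had an edgeR adjusted p of 0.578. *Adam23*, one of the members with no zinc site and known as a receptor of secreted LGI proteins in the nervous system, was at 3.63, 3.54 and 4.65 CPM in HET mice and at 1.64, 2.84 and 2.78 CPM in WT mice (log2 fold change 0.70 ± 0.24 SE, edgeR adjusted p = 0.402).

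The abundant sheddases differed by less than the spread between mice. *Adam10* was at 38.3, 34.7 and 38.7 CPM in HET and at 40.8, 41.6 and 35.9 CPM in WT mice, with a log2 fold change of −0.08 and a 95% interval from −0.30 to 0.13. *Adam17* had a log2 fold change of −0.04 with an interval from −0.23 to 0.16, and *Adam9* of −0.03 with an interval from −0.21 to 0.15, so for these 3 genes a difference as large as that of *Adam19* lay outside the interval. *Adam15* was more variable, at 34.5 to 54.3 CPM in HET and 28.4 to 44.7 CPM in WT mice, with an interval from −0.24 to 0.67. *Adam12*, known from myoblast fusion, was at 1.20 to 1.68 CPM in HET and 1.03 to 1.54 CPM in WT mice, and its 29 to 73 reads per library gave an interval from −0.30 to 0.92. The lowest log2 fold change of the class was that of *Adam1a*, −0.19 with an interval from −0.90 to 0.53 at 19 to 74 reads per library. *Adam1a* has a close copy, *Adam1b*, and a predicted gene on the same strand overlaps it, and reads can be shared in either way, so its level is uncertain.

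**Figure D2:**
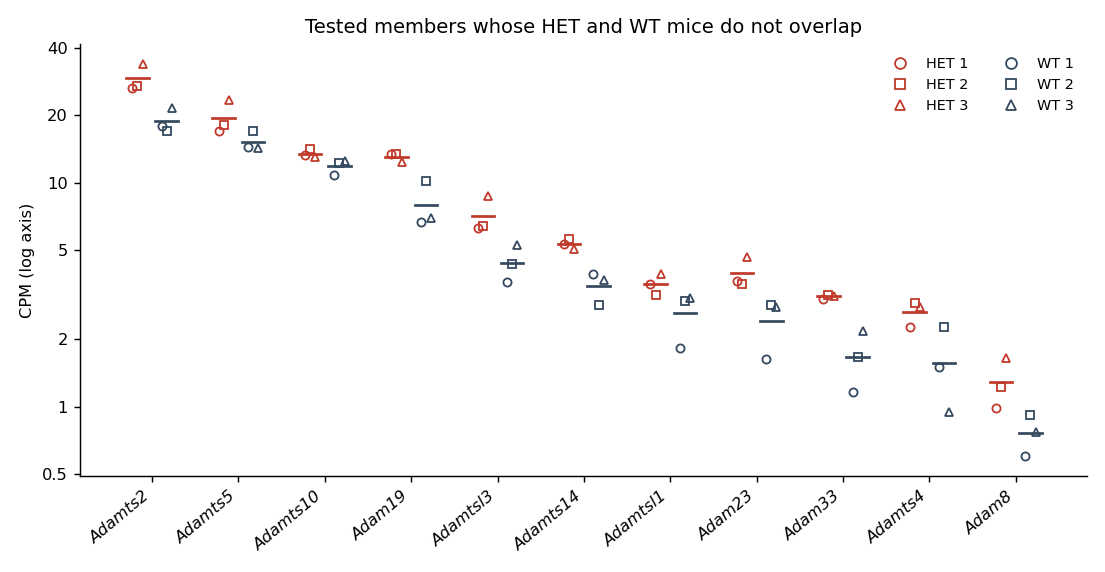
CPM (log axis) in each mouse for the 11 tested members in which all HET mice (red) lie above all WT mice (dark blue); symbols give the replicate number of the mouse and bars the mean of 3 mice. *Adamts5* and *Adamts4* separate by less than the rounding of the printed values, *Adam19*, *Adamts2* and *Adamts14* by a visible gap.

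Among the secreted proteases, the 3 procollagen N-proteinases each had a positive log2 fold change and none passed in edgeR. Of these 3, 2 separated the genotypes, beside 7.55% of all tested genes towards HET. *Adamts2*, the main remover of the amino-terminal propeptide of procollagens I and III, lies on the plus strand of chromosome 11 from 50602084 to 50807573, 4454.7 kb from *Adam19*. It was at 26.6, 27.1 and 34.1 CPM in HET and at 18.0, 17.0 and 21.5 CPM in WT mice. All HET mice were above all WT mice, HET 3 by the most, and the log2 fold change was 0.63 ± 0.13 (SE, edgeR adjusted p = 0.108, DESeq2 adjusted p = 0.00344), between 0.51 and 0.74 with 1 mouse left out. *Adamts14* was at 5.32, 5.63 and 5.06 CPM in HET and at 3.91, 2.84 and 3.69 CPM in WT mice, with little spread among HET mice and a log2 fold change of 0.61 ± 0.17 (SE, edgeR adjusted p = 0.267). *Adamts3*, which also processes VEGF-C, was the least abundant of the 3 at 23 to 86 reads per library, and its genotypes overlapped, at 1.60, 1.19 and 1.96 CPM in HET and 0.769, 1.13 and 1.60 CPM in WT mice (log2 fold change 0.43, 95% interval from −0.28 to 1.13). Summed, the 3 genes, of which *Adamts2* gives most of the reads, reached 36.2 ± 4.28 CPM in HET and 23.5 ± 2.96 CPM in WT mice (SD, n = 3 each), and no WT mouse exceeded 26.8 CPM while no HET mouse fell below 33.5 CPM.

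The 7 proteoglycanases had a median log2 fold change of 0.36, with 5 positive and 2 separating the genotypes. Over all tested genes, 45.6% were positive and 7.55% separated towards HET. Summed, the 7 genes overlapped, at 259, 210 and 340 CPM in HET and at 224, 229 and 205 CPM in WT mice. *Adamts8*, the most abundant, was at 118, 83.1 and 144 CPM in HET and at 98.4, 82.4 and 82.4 CPM in WT mice, so that HET 2 lay among the WT mice. Its log2 fold change of 0.39 ± 0.18 (SE, edgeR adjusted p = 0.669) was 0.20 at the lowest and 0.59 at the highest with 1 mouse left out. *Adamts1* had the same order of HET mice, at 79.2, 66.6 and 118 CPM, against 75.0, 75.1 and 68.7 CPM in WT mice. The WT mice of *Adamts1* had an SD of 3.68 CPM and the HET mice one of 26.9 CPM, and a log2 fold change of 0.27 was 0.00 at the lowest with 1 mouse left out.

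*Adamts5*, an aggrecanase, lies 55.1 kb from *Adamts1* on the minus strand of chromosome 16. It was at 17.1, 18.1 and 23.4 CPM in HET and at 14.4, 17.1 and 14.3 CPM in WT mice, and HET 1 exceeded WT 2 by less than the digits given (log2 fold change 0.36 ± 0.14 SE, edgeR adjusted p = 0.522). *Adamts4*, the other aggrecanase, was at 2.27, 2.91 and 2.80 CPM in HET and at 1.51, 2.27 and 0.952 CPM in WT mice, again with HET 1 and WT 2 at the same printed value (log2 fold change 0.78 ± 0.30 SE, edgeR adjusted p = 0.520). *Adamts15*, which lies 20.1 kb from *Adamts8* on the opposite strand of chromosome 9, had a log2 fold change of 0.58 ± 0.18 (SE, edgeR adjusted p = 0.328), with HET 2 at 7.23 CPM just under WT 2 at 7.34 CPM. *Adamts9* and *Adamts20*, which also cleave versican, showed no lean to HET, with intervals from −0.53 to 0.44 and from −0.40 to 0.39.

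Among the remaining *Adamts* genes, *Adamts10*, which acts on fibrillin microfibrils, was at 13.3, 14.1 and 13.1 CPM in HET and at 10.9, 12.3 and 12.5 CPM in WT mice. The genotypes separated by a small amount, and the log2 fold change was 0.18 ± 0.11 (SE, edgeR adjusted p = 0.822). *Adamts16* had the largest log2 fold change of the family, 1.19 ± 0.59 (SE, edgeR adjusted p = 0.709), at 7 to 59 reads per library. This value rested on HET 3 at 1.34 CPM, since HET 1 and HET 2 were at 0.267 and 0.447 CPM and the WT mice between 0.234 and 0.390 CPM, and without HET 3 it was 0.18. *Adamts7* and *Adamts12*, which degrade cartilage oligomeric matrix protein, had log2 fold changes of 0.17 and 0.24 and overlapped. *Adamts6* was the lowest of the class at −0.07, and *Adamts17* was at 0.06 with 13 to 55 reads per library.

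Of the 5 *Adamtsl* genes, 2 separated the genotypes, both among the 3 less abundant ones, beside 7.55% of all tested genes towards HET. *Adamtsl5* was at 99.8, 111 and 104 CPM in HET and at 91.6, 103 and 106 CPM in WT mice, with a log2 fold change of 0.07 and an interval from −0.13 to 0.27. *Adamtsl4* was at 89.9, 87.6 and 79.7 CPM in HET and at 92.0, 67.5 and 104 CPM in WT mice, the WT mice enclosing the HET mice. *Adamtsl3*, at 0.746 FPKM beside 21.8 for *Adamtsl5*, separated the genotypes, at 6.28, 6.41 and 8.75 CPM in HET and at 3.61, 4.33 and 5.29 CPM in WT mice (log2 fold change 0.69 ± 0.19 SE, edgeR adjusted p = 0.266). *Adamtsl1* separated narrowly, at 3.53, 3.17 and 3.92 CPM in HET and at 1.84, 2.98 and 3.06 CPM in WT mice (log2 fold change 0.43 ± 0.22 SE, edgeR adjusted p = 0.760). *Adamtsl2*, which binds fibrillin and latent TGF-β-binding protein, had the largest spread of the class relative to its mean in both genotypes, at 2.31 to 5.06 CPM in HET and 2.70 to 5.83 CPM in WT mice, and the log2 fold change of 0.04 took either sign depending on the mouse left out.

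**Figure D3:**
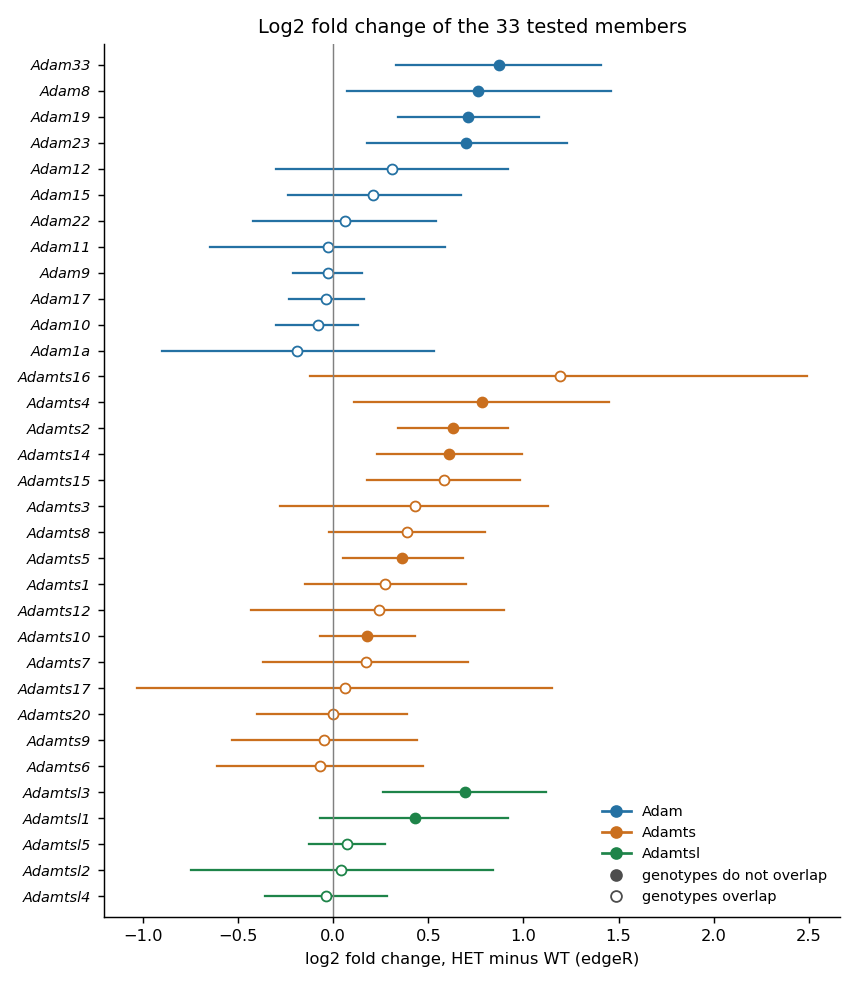
Log2 fold change, HET minus WT, of the 33 tested members from edgeR (points) with 95% intervals (lines), grouped by class and ordered by size; filled points are members whose HET and WT mice do not overlap in CPM. The intervals of 10 members lie above 0 and those of none below 0, before any adjustment for the number of genes, and *Adamts16* has the widest interval.

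The membrane-bound and the secreted members were set side by side. Of 12 tested *Adam* genes, 7 had a positive log2 fold change and the median was 0.14. Of 16 tested *Adamts* genes, 13 were positive with a median of 0.32, and of 5 *Adamtsl* genes 4 were positive with a median of 0.07, which was −0.01 with the GC trend removed and a replicate block. Separation towards HET was found in 4 *Adam*, 5 *Adamts* and 2 *Adamtsl* genes, or 33.3%, 31.2% and 40% of those tested, beside 7.55% of all tested genes. Within each class the log2 fold changes spread widely, from −0.19 to 0.87 for *Adam*, from −0.07 to 1.19 for *Adamts* and from −0.04 to 0.69 for *Adamtsl*. The difference between the classes was not tested.

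In summed CPM the *Adam* genes were at 240, 244 and 252 in HET and at 228, 248 and 231 in WT mice, and the genotypes overlapped. The *Adamts* genes were at 316, 267 and 409 in HET and at 266, 275 and 253 in WT mice, with HET 2 among the WT mice and HET 3 above all others. The *Adamtsl* genes were at 204, 211 and 202 in HET and at 192, 180 and 225 in WT mice. Among tested members, HET 3 was the highest mouse in 16 of 33, or 48.5%, and the lowest in 0, whereas over all tested genes it was the highest in 17.4% and the lowest in 21.3%. WT 1 was the lowest mouse in 14 of the 33 members, or 42.4%, and the highest in 0, against 17.9% and 20.6% over all tested genes. Without HET 3, 34 members passed the filter, of which 23 were positive and 6 at an unadjusted p below 0.05, in place of 24 and 10 of 33, and the *Adamts* median was 0.20. Without WT 1 these counts were 22 and 8 of 33.

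**Figure D4:**
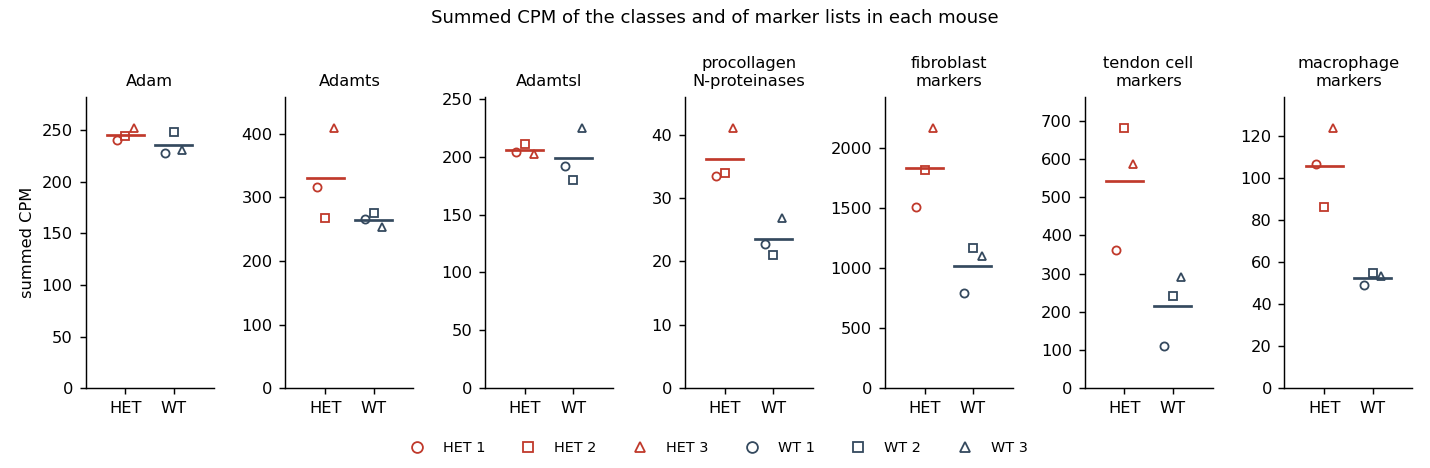
Summed CPM in each mouse (axes from 0) of the *Adam*, *Adamts* and *Adamtsl* genes, of the 3 procollagen N-proteinases and of 3 marker lists; symbols give the replicate number and bars the mean of 3 mice. The 3 classes overlap between genotypes, and the procollagen N-proteinases and the marker lists of fibroblasts, tendon cells and macrophages do not. Of the *Adamts* groups not plotted, the sums of the 7 proteoglycanases and of *Adamts7* with *Adamts12* overlap. The sum of the remaining 6 separates narrowly, with the lowest HET mouse at 17.4 CPM and the highest WT mouse at 17.2 CPM.

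Markers of connective tissue cells and macrophages were higher in each HET mouse than in each WT mouse when summed. The 10 fibroblast markers summed to between 1505 and 2164 CPM in HET and between 791 and 1164 CPM in WT mice, with all 10 positive and 5 passing in DESeq2, and HET 3 was the highest and WT 1 the lowest mouse, as for many members. Most of this sum came from *Col1a1* and *Col3a1*, at means of 626 and 583 of 1826 CPM in HET mice. Singly, 6 of the 10 separated the genotypes, beside 7.55% of all tested genes, and *Pdgfra*, *Lum*, *Cd34* and *Ly6a* overlapped. The 8 tendon cell markers were between 361 and 682 CPM in HET and between 110 and 291 CPM in WT mice, all 8 positive, with 0 past the threshold in edgeR or DESeq2 and 6 at an unadjusted p below 0.05 in edgeR. *Thbs4* and *Fmod* gave most of this sum, at means of 208 and 183 of 543 CPM in HET mice. Singly, 7 of the 8 tendon cell markers separated the genotypes and *Scx* overlapped, with a log2 fold change of 0.15. The 10 macrophage markers were between 86.1 and 124 CPM in HET and between 49.3 and 55.0 CPM in WT mice, all 10 positive and 5 of them past the threshold in edgeR. Singly, 9 of these 10 separated the genotypes and *Mrc1* overlapped, at means of 26.4 CPM in HET and 21.1 CPM in WT mice. Of all tested genes, 0.143% passed as higher in edgeR, 1.51% in DESeq2 and 5.76% at an unadjusted p below 0.05 in edgeR. None of these markers was at 0. The part of these cell types in the values of the members was not tested, and in RNA of a whole muscle more cells of a type and more RNA per cell cannot be told apart.

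Sums of the other marker lists overlapped between genotypes or were lower in HET. Endothelial markers were between 499 and 600 CPM in HET and between 509 and 655 CPM in WT mice, with a median log2 fold change of −0.06, and smooth muscle markers were between 127 and 176 CPM in HET and between 101 and 168 CPM in WT mice. Pericyte markers were between 922 and 1100 CPM in HET and between 1115 and 1227 CPM in WT mice, Schwann cell markers between 48.2 and 72.8 and between 41.4 and 80.5 CPM, and neutrophil markers between 3.99 and 6.31 and between 4.29 and 4.48 CPM. Of the 5 pericyte markers 2 were positive, with a median log2 fold change of −0.01. Only *Rgs5* among them separated the genotypes, at a mean of 570 CPM in HET and 715 CPM in WT mice. Of the 4 neutrophil markers 1 was tested, *Csf3r*, and HET 3 held the most reads on the other 3, with 56 on *S100a9*, 16 on *S100a8* and 15 on *Retnlg* against at most 7, 6 and 0 in any other mouse. This mouse was also the highest in 16 of the 33 tested members, and the part of these cells in that was not tested. Satellite cell markers were lower, between 15.6 and 17.4 CPM in HET and between 19.3 and 22.9 CPM in WT mice, with all 4 negative and none past the edgeR threshold. At an unadjusted p below 0.05 in edgeR 1 of them was lower, beside 294 of all 14696 tested genes. Singly, 2 of the 4, *Pax7* and *Myf5*, lay below WT in every HET mouse, beside 6.02% of all tested genes. Fast fiber markers were between 19248 and 20567 CPM in HET and between 22415 and 24637 CPM in WT mice, with all 5 negative and 0 at an unadjusted p below 0.05. Singly, 2 of these 5, *Tnnt3* and *Tnni2*, separated towards WT. Slow fiber markers overlapped, between 29165 and 31291 CPM in HET and between 29540 and 33187 CPM in WT mice. Among the fast fiber markers, *Myh4* was at 44.7, 2042 and 167 CPM in HET 1, HET 2 and HET 3. It was at 1470, 1774 and 976 CPM in the WT mice, and the cause of this spread was not tested.

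Of the inhibitors, partners and activators of these enzymes, 20 of 22 were tested, 16 had a positive log2 fold change, the median was 0.10 and none passed in edgeR, where 6 were higher and 1 lower at an unadjusted p below 0.05, while 4 passed in DESeq2 and 0 in limma-voom. Of all tested genes, 5.76% were higher at that unadjusted limit, and in DESeq2 1.51% passed as higher and 0.0555% as lower. *Timp2*, an inhibitor of metalloproteinases, was at 87.0, 104 and 123 CPM in HET and at 48.8, 56.8 and 76.0 CPM in WT mice (log2 fold change 0.79 ± 0.18 SE, DESeq2 adjusted p = 0.00124). *Timp4* was the lowest of the list and ran the other way, at 26.6, 28.8 and 27.8 CPM in HET and at 33.7, 38.6 and 55.1 CPM in WT mice (log2 fold change −0.62 ± 0.16 SE, DESeq2 adjusted p = 0.0303). The inhibitors thus held members on either side of 0. *Timp3*, the inhibitor best known to act on ADAM and ADAMTS proteases, named here after its values were seen, overlapped at 82.6, 79.6 and 104 CPM in HET and 65.0, 86.1 and 142 CPM in WT mice, with an interval from −0.82 to 0.54. *Timp1* had the largest log2 fold change of the list, 0.94 ± 0.35 (SE, edgeR adjusted p = 0.514), and WT 2 lay among the HET mice.

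*Lrp1*, the endocytic receptor that clears several ADAMTS proteases, was at 104, 114 and 123 CPM in HET and at 45.7, 61.2 and 86.6 CPM in WT mice (log2 fold change 0.81 ± 0.21 SE, edgeR adjusted p = 0.263, DESeq2 adjusted p = 0.00285). *Pcsk6*, a proprotein convertase of the kind that removes the prodomain of these enzymes, was at 25.6, 24.8 and 37.0 CPM in HET and at 13.8, 15.9 and 23.0 CPM in WT mice (log2 fold change 0.73 ± 0.22 SE, DESeq2 adjusted p = 0.0329). In both genes the HET mice lay above the WT mice, of which WT 3 was the nearest.

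The substrates of the secreted proteases are mostly proteins of the matrix. All 17 tested genes of this list of 20 had a positive log2 fold change, with a median of 0.87 and a range from 0.02 for *Vegfc* to 1.85 for *Comp*. None passed in edgeR or limma-voom, 13 were at an unadjusted p below 0.05, and *Bgn*, *Col3a1*, *Col5a1*, *Fbn1* and *Thbs1* passed in DESeq2. Of all tested genes, 5.76% were higher at that unadjusted limit in edgeR and 1.51% passed as higher in DESeq2. In edgeR with no filter on low counts 8 of 20 passed. Over all genes in that same fit, 386 passed as higher in HET and 18 as lower. The difference between these substrates and the proteases was not tested. *Col3a1*, the fibrillar collagen whose procollagen is cut by *Adamts2*, was at 511, 495 and 742 CPM in HET and at 260, 401 and 320 CPM in WT mice (log2 fold change 0.83 ± 0.20 SE, edgeR adjusted p = 0.212). *Thbs1*, a matrix glycoprotein, was at 44.1, 34.2 and 49.1 CPM in HET and at 11.5, 20.0 and 20.5 CPM in WT mice, the largest log2 fold change of the 5 (1.29 ± 0.23 SE, edgeR adjusted p = 0.105). *Col1a1* and *Col3a1* are also in the fibroblast list and *Comp* is in the tendon cell list, so these lists are not separate readings.

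The substrates of the membrane-bound proteases are mostly receptors and precursors of ligands. Of 22 tested genes of this list of 27, 14 had a positive log2 fold change and the median was 0.04. *Csf1r*, the receptor of macrophage colony-stimulating factor and also in the macrophage list, was the only one past the threshold in edgeR, where 0.143% of all tested genes passed as higher. It was at 12.7, 11.1 and 13.4 CPM in HET and at 3.38, 4.54 and 6.16 CPM in WT mice (log2 fold change 1.39 ± 0.20 SE, edgeR adjusted p = 0.0452). With 1 mouse left out it stayed past the threshold only without WT 3. It was also lost with limma-voom, without robust estimation and with the GC trend removed, and its adjusted p reached 0.263 over all alternatives, at a log2 fold change of 1.20 or more in each. *Igfbp3* was the lowest of the list at −0.25 ± 0.16 (SE), with overlapping genotypes. The difference between the 2 lists of substrates was not tested.

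**Figure D5:**
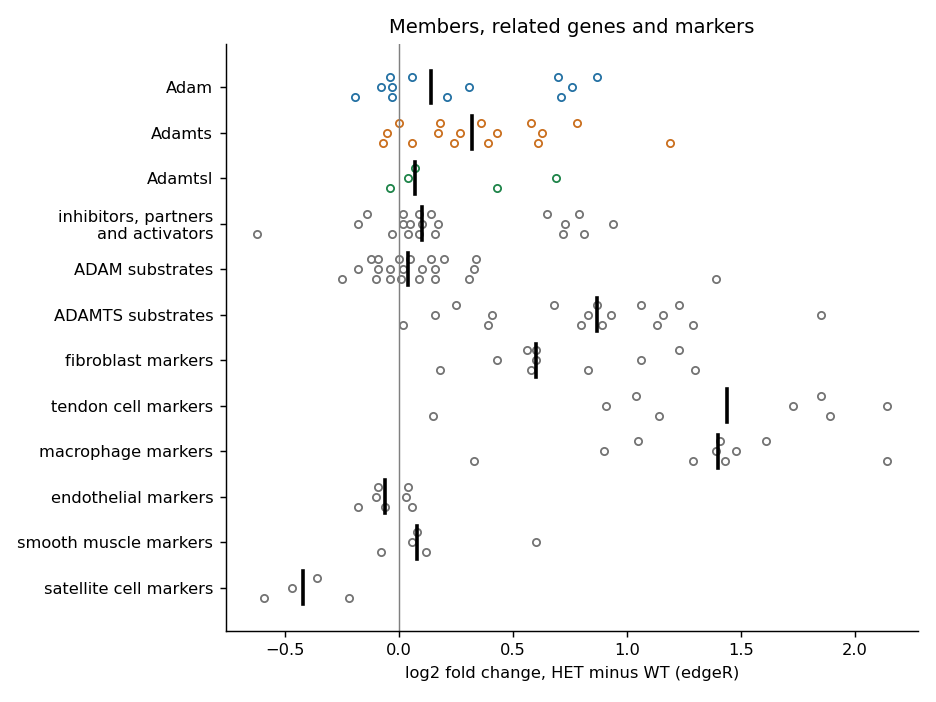
Log2 fold change, HET minus WT, of every tested gene (circles) of the 3 classes of members, of the related lists and of markers of cell types, with the median of each list as a black bar; vertical offsets only separate the points. The medians of the ADAMTS substrates (0.87), fibroblast (0.60), tendon cell (1.44) and macrophage (1.40) lists lie to the right of those of the 3 classes (0.14, 0.32 and 0.07).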

How the data were processed

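Members, gene lists and tests were chosen with earlier results of these data known. The authors aligned reads with STAR 2.7.3a to GRCm38.p6, per the labels, and deposited raw counts per gene from featureCounts 2.0.3, and a normalized signal, which is that count over a size factor of DESeq2 and was used here to find members. A deposited DESeq2 comparison with fold changes and p-values was not used.

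Counts were tested in edgeR 4.0.16 (R 4.3.3; filterByExpr with a minimum count of 10, TMM factors, robust quasi-likelihood test, genotype only, two-sided, Benjamini-Hochberg adjustment over 14696 genes, threshold 0.05), after a test on simulated data. DESeq2 1.42.0 and limma-voom (limma 3.58.1) were alternatives. The SE is the log2 fold change over the square root of F. CPM use TMM factors, and FPKM also the exon length of the count table. Libraries held 26790075 to 50368796 reads on genes. The p-values set the difference between genotypes against the spread between these mice, which is estimated partly from all genes. Other alternatives were other scaling factors, other filters, no robust estimation, removal of length or GC trends, a block on the replicate number and each mouse left out. Mice were compared as 3 against 3.

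Named members were those that passed in edgeR or DESeq2, separated the genotypes, were among the 6 highest by FPKM of a class or had its largest or smallest log2 fold change. Genes of the related lists were named where they passed or were at an end of the list. Any other gene is given for its role. Zinc sites were read from the longest coding transcript of each member in GENCODE M21. Proteins as such were not printed.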

Additional observations from a re-analysis of the deposited data

How the results depend on the processing

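At 3 mice per genotype and with few reads on the rarest members, counts of calls moved with the processing. Among named members the log2 fold change that moved most was that of *Adamts16*, between 0.18 and 1.58 with 1 mouse left out, against 1.19. The fast fiber marker *Myh4* moved further, between −3.71 and −0.35 with 1 mouse left out, against −0.91. Over all genes, 21 were higher and 1 lower, and these counts became 386 and 18 with no filter on low counts, 218 and 8 with DESeq2, 3 and 0 with limma-voom, 6 and 0 without robust estimation and 7 and 1 with the GC trend removed. With 1 mouse left out, between 0 and 77 were higher and between 0 and 6 lower, with 0 in either direction without HET 1, HET 3, WT 1 or WT 2 and 77 and 6 without WT 3. Of the 33 members tested, 0 were called, against 2 with DESeq2 (*Adam19* and *Adamts2*). With no filter, 6 of 39 were called (these 2, *Adam33*, *Adamts8*, *Adamts15* and *Adamtsl3*). None was called with limma-voom, without robust estimation, with other scaling factors, with either trend removed or with any mouse left out. Of the 20 inhibitors, partners and activators tested, 0 were called, against 7 of 21 with no filter, 4 with DESeq2, 3 in each fit with the block and 2 without WT 3. Of the 17 ADAMTS substrates tested, 0 were called, against 8 of 20 with no filter and 5 with DESeq2. It was 8 with the block, 9 with the block and the length trend removed and 4 with the block and the GC trend removed. In these fits with the block, 114, 121 and 95 of all genes were higher. The cause of these moves was not tested.

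Whether the replicate numbers pair the mice is not known from the labels. The deviations of same-numbered mice correlated at 0.203, −0.00578 and −0.0349. With so few mice per genotype, these values cannot decide it, since a low correlation does not exclude a shared litter or batch. The replicate number was therefore used as a block only as an alternative. With the number as a block, 114 genes were higher and 2 lower, with the length trend removed as well 121 and 2, and with the GC trend removed as well 95 and 2, and in each of these 1 member, *Adamts2*, was called. Not every mouse correlated best with its own number.

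The number of positive members was between 21 and 31 over all alternatives, of 32 to 39 tested, and between 22 and 31 of 33 or 34 with 1 mouse left out. The class medians kept their sign except for *Adamtsl* with the GC trend removed, and with 1 mouse left out the *Adamtsl* median lay between 0.01 and 0.46, with 0.32 without HET 2 and 0.46 without WT 3. The separation of 11 members, tried on other scales after the data were seen, was 12 without TMM factors, with *Adamts15* added, and 11 with the deposited size factors. Of the genes named, those near 0 changed sign. With 1 mouse left out, *Adam9* lay between −0.06 and 0.03, *Adam17* between −0.08 and 0.01, *Adam1a* between −0.44 and 0.06, *Adamts6* between −0.22 and 0.14, *Adamtsl4* between −0.20 and 0.10, *Adamtsl2* between −0.16 and 0.46 and *Vegfc* between −0.09 and 0.24. *Adamtsl5* was −0.04 with the GC trend removed, with or without the block, *Adamtsl2* was −0.01 with the length trend removed and with the GC trend and block, and *Vegfc* was −0.03 with the length trend removed and −0.01 with the block added. Among the genes fixed by the naming rule, the one other change of sign was that of *Adamts20*, next to 0, between −0.17 and 0.15 with 1 mouse left out. Of the members given for their role, *Adamts7* (−0.03 to 0.33), *Adamts9* (−0.26 to 0.19), *Adamts12* (−0.02 to 0.50) and *Adamts17* (−0.60 to 0.47) also took either sign with 1 mouse left out.

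With the exon lengths of the reference annotation in place of those of the count table, the 6 highest members of each class were the same, and the FPKM of 5 named members moved by more than their spread, among them *Adamts10* to 1.54, *Adamts5* to 1.61 and *Adam1a* to 0.146.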
